A study of Mus musculus with 12 samples.

Results

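Loss of 2 genes can add up, or the double loss can differ from the sum of the single ones. The subject here was that difference for Hdac2 and Hopx in the mouse heart, measured for each gene as the log2 interaction: the double-null mean minus the Hdac2-null mean minus the Hopx-null mean plus the wild-type mean. An interaction of 0 means that the effects of the losses added on the log2 scale, a negative one that double-null signal lay below the additive level, and a positive one that it lay above. The same number is the effect of Hopx loss in hearts that lack Hdac2 minus the effect of Hopx loss in hearts that have it. All 12 arrays of the series entered it, and all genes that passed a filter on low values were members, 9661 of 18193 genes with a probe set of their own.

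The arrays held ventricular RNA of embryos at embryonic day 16.5, 3 independent ventricles in each of 4 genotypes: Hdac2-Hopx double-null, Hdac2-null, Hopx-null and wild type. The labels call the nulls knockouts and give neither the alleles, the strain, the sex nor the litters, so a shared litter or background could not be taken into account. Each array gave 1 intensity per probe set on a linear scale. Intensities below 82.9 units were raised to that floor before the log2 step, and each gene was read from its probe set with the highest mean signal.

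Hdac2 is a class I histone deacetylase that removes acetyl groups from histones and other proteins, and it acts within the Sin3, NuRD and CoREST corepressor complexes. Hopx has a homeodomain but lacks DNA binding of its own, and has been described as a partner of Hdac2 in cardiac muscle cells, where both bear on Gata4 acetylation, proliferation and the programme of embryonic heart genes. Where proteins may act together, genetic practice sets the double loss against the sum of the single losses, and the crossing of both nulls in this series allowed that gene by gene.

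The promoters of 3 genes are shown as examples, and no link between their letters and the interactions was tested. Hbb-y, which encodes an embryonic beta-like globin chain of primitive red cells, had the most negative fitted interaction at the floor used, a value that depends on that floor. Rps3a1, a protein of the small ribosomal subunit, was among the 15 negative interactions with the smallest p, and Rpl11, a protein of the large subunit, belongs to the ribosomal list, which held the largest share of members at an unadjusted p under 0.05. The stretches run from 120 bases before the annotated start of the gene to 15 bases after it, are RefSeq sequence of assembly GRCm38.p6 and read 5′ to 3′ on the gene's own strand, which is the minus strand for all 3. Capitals mark CACCC and CCAAT in the globin promoter and CCGGAA in the ribosomal ones, searched on both strands. In Rpl11 the marked stretch lies after the annotated start. The 3 motifs share no letters where they occur here.
Hbb-y, chr7:103853193-103853327: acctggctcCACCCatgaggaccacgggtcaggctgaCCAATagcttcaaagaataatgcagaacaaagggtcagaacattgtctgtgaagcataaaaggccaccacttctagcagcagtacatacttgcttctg
Rps3a1, chr3:86142654-86142788: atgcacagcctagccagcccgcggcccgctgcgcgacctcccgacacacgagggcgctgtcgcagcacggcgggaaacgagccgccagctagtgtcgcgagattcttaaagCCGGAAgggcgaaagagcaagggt
Rpl11, chr4:136053379-136053513: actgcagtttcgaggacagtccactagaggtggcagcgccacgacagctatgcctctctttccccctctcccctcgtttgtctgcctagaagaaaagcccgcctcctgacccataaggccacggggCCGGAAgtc
Over promoter windows of 300 bases, CCGGAA occurred on either strand in 52.2% of 23 promoters of the ribosomal list and in 14.9% of all 32851 promoters of the table. The 23 belong to 18 genes of the list. CACCC occurred in 57.5% and CCAAT in 37.4% of all promoters. A match describes the letters in the window and no more.

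No gene departed from additivity past the test. The limma fit over all 12 arrays, with Benjamini-Hochberg adjustment over 9661 genes, called 0 genes at an adjusted p under 0.05 (0%), and the smallest adjusted p was 0.944. Before adjustment, 398 genes (4.12%) had p under 0.05, of which 187 had a positive interaction (1.94%) and 211 a negative one (2.18%). Equal spread of p-values between 0 and 1 would put 483 genes there, and 97 under 0.01, where 56 genes were found. The number of genes under 0.05 depended on single arrays: it was 213 without double-null array 3 and 770 without Hopx-null array 3.

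The interactions were small and centred near 0. Their median over all genes was 0.005 and their SD 0.23, and 51.3% lay above 0. An interaction combines 4 group means, so its median SE of 0.16 was 1.41 times that of a comparison between 2 groups, 0.11. The median 95% interval reached 0.35 to each side of the estimate. For 8710 genes (90.2%) the whole interval lay within 1 log2 unit of 0, and for 5226 genes (54.1%) within 0.5. A departure by more than a doubling of the additive level was thus outside the interval for most genes measured, while departures of the size of the typical SE were below what 3 arrays per genotype could show.

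**Figure D1:**
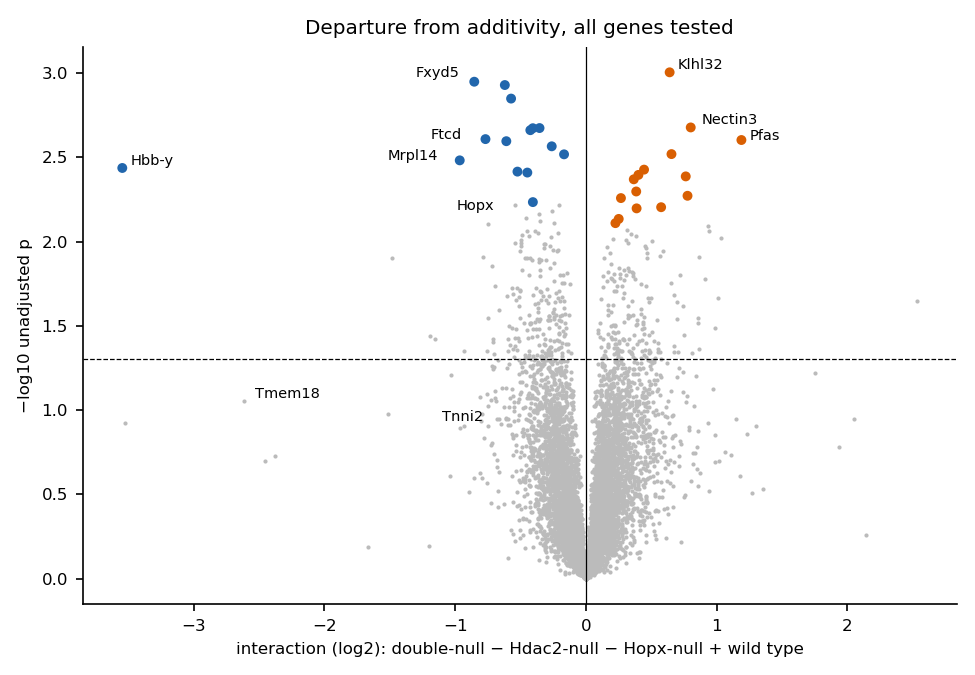
Interaction of each of 9661 genes (horizontal axis, log2: double-null minus Hdac2-null minus Hopx-null plus wild type) against the −log10 of its unadjusted p (vertical axis). Blue and orange points are the 15 genes with the smallest p below and above 0, the dashed line marks an unadjusted p of 0.05, and no gene passed after adjustment. Most points lie within 1 log2 unit of 0, and Hbb-y stands apart at −3.55.

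The rank of the arrays separated few genes as well. In 9 genes (0.0932%) every double-null and wild-type array lay below every array of both single nulls, and in 6 genes (0.0621%) every such array lay above them. The 9 lower genes were Fxyd5, Denr, Rps3a1, Irx2, Commd6, Dlgap4, C2cd2, Sem1 and Ssr4, and the 6 higher ones Pramel12, Med12l, Dlg1, Rai14, Atp11b and Etnk1. Those of them outside the naming rule (Irx2, Commd6, Dlgap4, C2cd2, Sem1, Ssr4, Rai14, Atp11b and Etnk1) were chosen after their values were seen. Irx2, a homeodomain transcription factor, had an interaction of −0.92 (SE 0.27) and Commd6, a member of the COMMD family, one of −0.46 (SE 0.14), and neither passed the adjusted test.

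The targeted genes came first as a check of the labels. Hdac2 signal was 4.07, 4.06 and 4.32 on the double-null arrays and 4.05, 4.04 and 4.05 on the Hdac2-null arrays, against 5683, 4442 and 4586 on the Hopx-null arrays and 4717, 4604 and 5195 on the wild-type arrays. All 6 arrays labelled as lacking Hdac2 were thus at the floor and all 6 others far above it. Because both groups without Hdac2 sit at the floor, its interaction of −0.01 (SE 0.15) compares only the Hopx-null and wild-type arrays.

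Hopx was the targeted gene with a measurable interaction. Its main probe set gave 1728, 1715 and 1656 units on the double-null arrays and 12209.6, 12240.1 and 11677 on the Hdac2-null arrays, against 1865, 2046 and 2066 on the Hopx-null arrays and 8653, 8577 and 12221 on the wild-type arrays. Every array labelled as lacking Hopx was low and every other one high, with the double-null arrays all below the Hopx-null arrays. The Hdac2-null and wild-type arrays overlapped, through wild-type array 3 alone. On the log2 scale Hopx loss measured −2.82 (SE 0.11) in hearts that lack Hdac2 and −2.28 (SE 0.11) in hearts that have it, and the interaction was −0.54 (SE 0.16, 95% interval −0.89 to −0.19, unadjusted p = 0.00606 in the limma fit, adjusted p = 0.944). Without wild-type array 3 it was −0.71 with an adjusted p of 0.0456, the sole call made for any gene when single arrays were left out. The second Hopx probe set averaged 9.71 ± 0.0111 units in double-null hearts and 1358 ± 179 in Hdac2-null hearts, against 11.9 ± 1.94 in Hopx-null hearts and 787 ± 322 in wild-type hearts (SD, n = 3 each). Its interaction of −0.86 (SE 0.32) rests on the Hdac2-null and wild-type arrays only, since both groups without Hopx lie at the floor. The main probe set kept signal well above the floor in hearts without Hopx, and which part of the transcript it reads was not analysed here.

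The 15 negative interactions with the smallest p ranged from −0.17 to −3.55, which places double-null signal 1.12-fold to 11.7-fold below the additive level, all with an adjusted p of 0.944. Fxyd5, a small membrane protein that regulates the sodium pump and cell adhesion, gave 674, 618 and 483 units on the double-null arrays, 831, 833 and 808 on the Hdac2-null arrays, 965, 887 and 792 on the Hopx-null arrays and 706, 756 and 598 on the wild-type arrays. Both single nulls lay above wild type without overlap, and the double-null arrays overlapped the wild-type ones. Its interaction of −0.85 (SE 0.20, 95% interval −1.28 to −0.42) was a 1.81-fold shortfall of the double-null from the additive level. Emcn, the endothelial sialomucin endomucin, read 1322, 1392 and 1187 on the double-null arrays, 1754, 1856 and 1642 on the Hdac2-null arrays, 1759, 1497 and 1516 on the Hopx-null arrays and 1341, 1523 and 1456 on the wild-type arrays. The Hdac2-null arrays were all above the double-null and wild-type ones, and the Hopx-null arrays overlapped both the Hdac2-null and the wild-type arrays. The interaction was −0.57 (SE 0.14). Bsg, basigin, a chaperone of lactate transporters at the cell surface, had an interaction of −0.41 (SE 0.12).

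Genes of RNA editing, proteolysis and folding followed. Adarb1, an enzyme that edits adenosine to inosine in RNA, measured 659, 685 and 632 units on the double-null arrays, 996, 1029 and 843 on the Hdac2-null arrays, 815, 858 and 838 on the Hopx-null arrays and 764, 862 and 742 on the wild-type arrays. Every double-null array was below every other array. Hdac2-null arrays 1 and 2 were the highest of all, and Hdac2-null array 3 lay within the Hopx-null and wild-type ranges. The interaction was −0.62 (SE 0.14). Ctsd, the lysosomal protease cathepsin D, read 3665, 3925 and 3733 on the double-null arrays, 4563, 4863 and 4563 on the Hdac2-null arrays, 4938, 4918 and 4458 on the Hopx-null arrays and 4579.6, 4794 and 3996 on the wild-type arrays. Here too the double-null arrays were the 3 lowest of 12, and the other 3 groups overlapped, for an interaction of −0.41 (SE 0.10). Pfdn5, a subunit of the prefoldin chaperone that passes unfolded actin and tubulin on, had −0.26 (SE 0.07). Phpt1, a phosphatase of phosphohistidine, had −0.35 (SE 0.09), and Ftcd, an enzyme of histidine and folate metabolism, −0.77 (SE 0.20).

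The rest included genes of translation and of mitochondria. Rps3a1 gave 25473, 25806 and 25858 units on the double-null arrays, 27213, 28879 and 27149.5 on the Hdac2-null arrays, 28329.9, 27373 and 26498 on the Hopx-null arrays and 26334, 26305 and 26295 on the wild-type arrays. The single nulls were above all other arrays without overlap, though the interaction of −0.17 (SE 0.04) was the smallest in size among the 15. Denr, a factor for recycling ribosomes and restarting translation, read 2848, 2723 and 2462 on the double-null arrays, 2907, 3129 and 2978 on the Hdac2-null arrays, 3398, 3059 and 3140.0 on the Hopx-null arrays and 2469, 2800.3 and 2765 on the wild-type arrays. The single nulls were again the 6 highest arrays, and the interaction was −0.43 (SE 0.11). A second, dimmer Denr probe set differed, with −0.01 (SE 0.28).

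Mrpl14, of the large mitochondrial ribosomal subunit, was dim, at 109, 88.3 and 89.1 units on the double-null arrays, 120.5, 161 and 162 on the Hdac2-null arrays, 164, 145 and 121 on the Hopx-null arrays and 121, 134 and 88.1 on the wild-type arrays. The double-null and wild-type ranges overlapped, as did those of both single nulls and wild type, and several values were near the floor. Its interaction was −0.97 (SE 0.26). Triap1, a small mitochondrial protein of p53-dependent cell survival, had −0.61 (SE 0.16), Fis1, an adaptor for mitochondrial fission, −0.45 (SE 0.12), and Use1, a SNARE protein of the endoplasmic reticulum, −0.52 (SE 0.14).

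Hbb-y varied widely within groups. It gave 47.4, 16.2 and 64.7 units on the double-null arrays, 1209, 985 and 219 on the Hdac2-null arrays, 427, 4.89 and 5.69 on the Hopx-null arrays and 7.66, 4.84 and 123 on the wild-type arrays. All 3 Hdac2-null arrays, 1 Hopx-null array and 1 wild-type array were above the floor, and no double-null array was. The interaction was −3.55 (SE 0.96, 95% interval −5.67 to −1.42), a fitted value that depends on the floor: it was −4.58 with no floor and −2.40 with the floor doubled, where those of Tmem18 (−2.61) and Paip1 (−2.45) were further below 0. A second probe set gave −3.24 (SE 0.90), and the third stayed below the floor on all 12 arrays, with means of 4.64 in double-null, 13.7 in Hdac2-null, 4.69 in Hopx-null and 4.61 in wild-type hearts. The 2 probe sets with signal are of a kind whose probes can also match related transcripts, and adult globins were abundant in every ventricle, so the source of this signal among the beta-like globins is uncertain. Hbb-b2, an adult beta globin, had an interaction of 0.12 (SE 0.07). Of the other erythroid genes, 2 were picked after their values were seen: Alas2, the first enzyme of heme synthesis in red cells, had −0.78 (SE 0.50), and Slc4a1, the red cell anion exchanger, −0.03 (SE 0.11). The embryonic globins Hbb-bh1 and Hba-x did not exceed 5.47 units on any array. How much blood each ventricle held was not measured, and its part in the Hbb-y values was not tested.

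**Figure D2:**
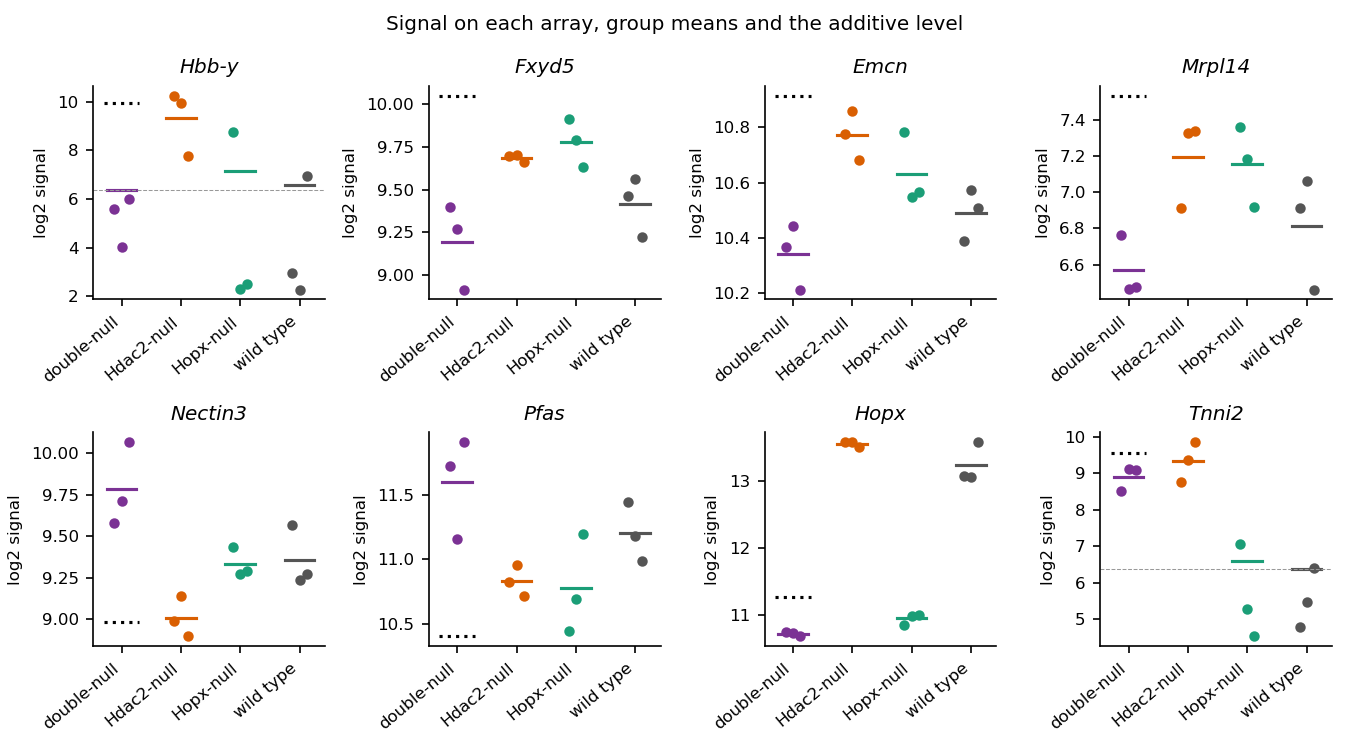
Signal of 8 genes on each array (points, log2 scale, in the order of replicates 1 to 3) by genotype, with group means after the floor (bars). The dotted line over the double-null group is the additive level, Hdac2-null plus Hopx-null minus wild type, and the dashed line is the floor of 82.9 units where a gene reaches it. Double-null points lie below the dotted line for Hbb-y, Fxyd5, Emcn, Mrpl14, Hopx and Tnni2 and above it for Nectin3 and Pfas.

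The 15 positive interactions with the smallest p ranged from 0.23 to 1.19, or 1.17-fold to 2.28-fold above the additive level, again all with an adjusted p of 0.944. Pfas, an enzyme of de novo purine synthesis, had the largest of them. It gave 3379, 2286 and 3835 units on the double-null arrays, 1808, 1986 and 1680.3 on the Hdac2-null arrays, 1395, 1657 and 2339 on the Hopx-null arrays and 2782, 2315 and 2029 on the wild-type arrays. The Hdac2-null arrays were all below the double-null and wild-type arrays, and Hopx-null array 3 overlapped both. The interaction was 1.19 (SE 0.31, 95% interval 0.52 to 1.86). Aldh1l2, a mitochondrial enzyme of folate metabolism, had 0.58 (SE 0.17).

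Nectin3, a cell adhesion molecule of the immunoglobulin family, read 764, 839 and 1073 on the double-null arrays, 508, 565 and 477 on the Hdac2-null arrays, 692, 619 and 628 on the Hopx-null arrays and 759, 603 and 618 on the wild-type arrays. The double-null arrays were the 3 highest and the Hdac2-null arrays the 3 lowest, and the Hopx-null and wild-type arrays overlapped. The interaction was 0.80 (SE 0.20) in this probe set, but −0.30 (SE 0.17), −0.13 (SE 0.20) and −0.13 (SE 0.24) in 3 other probe sets of the gene, so the direction for Nectin3 is not settled. Dlg1, a membrane scaffold protein of cell polarity, gave 4214, 4206 and 4404 on the double-null arrays, 3775, 3906 and 3963 on the Hdac2-null arrays, 4143, 3889 and 4125 on the Hopx-null arrays and 4747, 4271 and 4282 on the wild-type arrays. Both single nulls were below the other 6 arrays without overlap, for an interaction of 0.27 (SE 0.08).

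Other positive members act in the nucleus. Med12l, a paralogue of a Mediator kinase module subunit, read 2613, 2619 and 2521 on the double-null arrays, 2343, 2411 and 1944 on the Hdac2-null arrays, 2347, 2409 and 2369 on the Hopx-null arrays and 2796, 2663 and 2637 on the wild-type arrays. The single nulls were the 6 lowest arrays, and the interaction was 0.40 (SE 0.11). Gnl3l, a nucleolar GTP-binding protein, had 0.37 (SE 0.10), Zfp367, a zinc finger protein, 0.38 (SE 0.11), Ythdc1, a nuclear reader of methylated adenosine in RNA, 0.25 (SE 0.08), and Ncoa2, a coactivator of nuclear receptors, 0.23 (SE 0.07).

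Another 5 were Klhl32, Pramel12, Trpm7, Alox5ap and Zfp133-ps. Trpm7, an ion channel joined to a kinase, had 0.39 (SE 0.12), and Alox5ap, the protein that presents arachidonic acid for leukotriene synthesis, 0.78 (SE 0.22). Pramel12, a PRAME family member, had 0.65 (SE 0.17), and Zfp133-ps, annotated as a pseudogene of a zinc finger gene, 0.76 (SE 0.21). Alox5ap and Zfp133-ps were dim, with 60.0 units on Hdac2-null array 1 and 73.2 on Hdac2-null array 3, below the floor. The additive level of both lay below the floor. With the other groups as measured, these 2 interactions could thus not have come out negative. Klhl32, a Kelch-like protein, had the smallest p of all genes, 0.00099 in the limma fit (adjusted p = 0.944). Its signal was 25.4, 96.5 and 56.6 on the double-null arrays, 40.3, 14.3 and 78.4 on the Hdac2-null arrays, 36.1, 36.0 and 75.8 on the Hopx-null arrays and 124, 139 and 107 on the wild-type arrays. Only 4 arrays exceeded the floor, all 3 wild-type ones among them, so its interaction of 0.64 (SE 0.14) came from 3 groups held at or near the floor.

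Size alone picked other genes, some of them with a wide spread of arrays within a group. The interaction exceeded 1 log2 unit in size in 30 genes, 17 above 0 and 13 below, of which 11 were above the floor on all 12 arrays, as 8972 genes were. Tmem18, a nuclear envelope protein, had an interaction of −2.61 (SE 1.40) and gave 2818, 2691 and 250.3 units on the double-null arrays, 2857, 1472 and 1892 on the Hdac2-null arrays, 2731, 2746 and 1805 on the Hopx-null arrays and 2919, 299 and 284 on the wild-type arrays. It was low on double-null array 3 and on wild-type arrays 2 and 3, and at 1472 units or more on the others. Paip1, a partner of the poly(A)-binding protein in translation, had −2.45 (SE 1.80) in its brightest probe set and 0.73 (SE 0.30) in another, and the bright one ranged within wild type alone from a low of 437 to a high of 4762 units. Enpp3, an ectoenzyme that cleaves nucleotides, had 1.75 (SE 0.84), with Hdac2-null values of 612, 85.2 and 129. Ptov1, a gene first described in prostate tumours, had −1.48 (SE 0.50), and a second probe set of it −0.62 (SE 0.31).

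Genes of the heart that the Hdac2 and Hopx literature concerns lay close to additivity. Gata4, a cardiac transcription factor, had an interaction of −0.01 (95% interval −0.25 to 0.22), and gave 5933, 5672 and 5464 on the double-null arrays, 5533, 5929 and 5887 on the Hdac2-null arrays, 5729, 5839 and 5187 on the Hopx-null arrays and 5089, 5593 and 6264 on the wild-type arrays. All 4 groups overlapped. Nkx2-5, another cardiac transcription factor, had −0.04 (−0.43 to 0.36). The myosin heavy chains of the adult and the embryonic mouse ventricle had the narrowest intervals, Myh6 with 0.06 (−0.08 to 0.20) and Myh7 with −0.03 (−0.13 to 0.08). Myh6 read 35072 to 40828 units on a scale that reached 57994, and whether signal is compressed at such levels was not tested. Hdac1, the closest paralogue of Hdac2, had 0.05 (−0.21 to 0.31). The cell cycle genes Ccnd2, a D-type cyclin, and Cdk4, its kinase partner, had −0.03 (−0.27 to 0.20) and −0.13 (−0.45 to 0.19). For these 7 genes the interval kept departures beyond 0.5 log2 units outside.

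Other heart genes were measured with less precision. Nppa, atrial natriuretic peptide, had −0.15 (−0.78 to 0.48) and Nppb, brain natriuretic peptide, −0.22 (−0.75 to 0.31). Acta1, the skeletal actin of the fetal heart, had −0.02, but its interval ran from −1.82 to 1.79, because single arrays spread over 342 to 1786 units within the Hdac2-null group and 665 to 2345 within wild type. Tnni2, the fast skeletal isoform of troponin I, gave 364, 551 and 549.9 units on the double-null arrays and 439, 665 and 926 on the Hdac2-null arrays, against 134, 39.1 and 23.3 on the Hopx-null arrays and 27.7, 45 and 84.6 on the wild-type arrays. The groups without Hdac2 were high and overlapped each other, and the groups with Hdac2 lay mostly below the floor. The interaction of −0.65 (SE 0.39, −1.5 to 0.20) did not pass, and a dimmer probe set gave −0.15 (SE 0.27). Inpp5f, an inositol phosphatase of the Akt pathway, had 0.45 (SE 0.29, −0.18 to 1.08), with wild-type values of 2471, 1540.3 and 2625 that spanned nearly those of all other arrays.

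**Figure D3:**
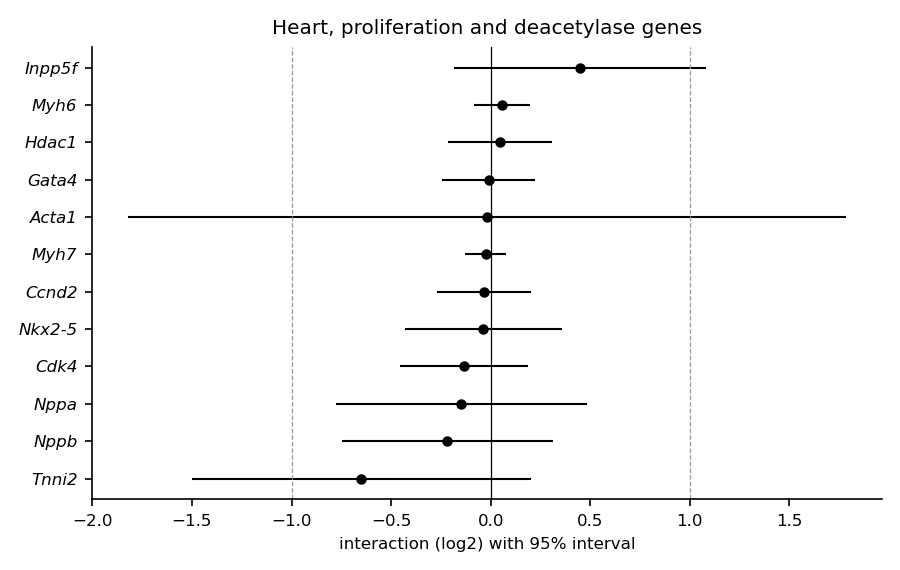
Interaction (points, log2) with its 95% interval (lines) for 12 heart, cell cycle and deacetylase genes, and dashed lines at 1 log2 unit to each side of 0. All 12 intervals include 0, and those of Acta1, Tnni2 and Inpp5f reach past 1 log2 unit.

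Gene lists for the tissue and its other cell types were described by counts and medians, beside 4958 positive and 4703 negative interactions and a median of 0.005 over all genes tested. No member of any list was called. The ribosomal proteins held the largest share of members at an unadjusted p under 0.05 among lists with at least 3 tested members, 8 of 21 or 38.1%, against 4.12% of all genes tested. All 8 were below 0, as were 2.18% of all genes at that p. In all, 19 of the 21 lay below 0, with a median of −0.12. Rps19, a protein of the small subunit, gave 12346, 12013 and 10966 units on the double-null arrays, 14115, 15348 and 13366 on the Hdac2-null arrays, 13837, 12342 and 11543 on the Hopx-null arrays and 11162, 12294 and 12332 on the wild-type arrays. The Hdac2-null arrays were above all double-null and wild-type arrays, and the Hopx-null arrays overlapped every other group. Its interaction was −0.35 (SE 0.11). Rplp0, of the ribosomal stalk, had −0.25 (SE 0.08) and Rpl11, whose promoter is given above, −0.25 (SE 0.09).

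The count of ribosomal members below an unadjusted p of 0.05 depended on the arrays. It was 3 without double-null array 3, 3 without Hdac2-null array 2 and 4 without Hopx-null array 1. Without wild-type array 1 and Hopx-null array 1 together it was 1. In the same order, the counts over all genes were 213 of 9653, 283 of 9647, 480 of 9642 and 440 of 9601. The list median stayed between −0.15 and −0.08 when single arrays were left out. The mean deviation of the members from their own means over the 12 arrays was −0.00, −0.03 and −0.09 log2 units on the double-null arrays, 0.08, 0.12 and 0.01 on the Hdac2-null arrays, 0.08, −0.01 and −0.08 on the Hopx-null arrays and −0.06, −0.02 and −0.01 on the wild-type arrays. The Hdac2-null group had the highest mean, and the Hopx-null arrays spanned most of the range. Of 2 measures of RNA quality, the log2 ratio of 3′ to 5′ signal of the Gapdh control probe sets averaged 1.06 on double-null and wild-type arrays and 0.94 on single-null arrays. The interaction in that ratio was 0.24, with an exact two-sided permutation p of 0.0606 over 924 splits of the arrays (adjusted over 2 ratios p = 0.121, smallest possible p = 0.00216), and the highest value, 1.33, was that of wild-type array 1. The same ratio for beta-actin had an interaction of −0.00 (exact permutation p = 0.948). The part of RNA quality in the ribosomal values was not tested. Many ribosomal protein genes have near-identical copies in the genome, and how far the probe sets tell them apart is uncertain.

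Interactions also moved with the length of genes. Genes were placed in 5 bins of near-equal number by their genomic span in the RefSeq annotation of GRCm38.p6. In the bin of the shortest genes, up to 8963 bases, 36.4% of interactions were above 0 and the median was −0.06. In the next bins the share above 0 was 48.0%, 54.2%, 58.0% and 59.9%, with medians of −0.01, 0.02, 0.03 and 0.03. At an unadjusted p under 0.05 the shortest bin held 83 negative and 21 positive interactions, together 5.39% of its 1928 genes. The longest bin held 25 negative and 51 positive ones, 3.94% of its 1928 genes, against 4.12% of all genes tested. These counts were not taken again with arrays left out. The 15 leading negative genes had a median span of 9609 bases and the 15 leading positive genes one of 34190 bases, against 25985 over all genes with a span. The genes of the ribosomal list are short, and the part of span in the list values was not tested.

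Cell type markers leaned in both directions. All 12 tested macrophage and leukocyte markers had a positive interaction, from 0.03 to 0.51 with a median of 0.21, but none reached an unadjusted p of 0.05. F13a1, the coagulation factor XIII A chain made by resident macrophages, had the largest, 0.51 (SE 0.36), with 1618, 2023 and 1555 units on the double-null arrays, 1693, 907 and 1380.1 on the Hdac2-null arrays, 2193, 1658 and 2016 on the Hopx-null arrays and 2757, 2212 and 1459 on the wild-type arrays. All 4 groups overlapped. Csf1r, the receptor that macrophages need to survive, had 0.13 (SE 0.09) and Tyrobp, a signalling adaptor of myeloid cells, 0.20 (SE 0.15). The summed signal of the list ran over 22374 to 24679 in double-null, 21520.4 to 22752 in Hdac2-null, 24578 to 26868 in Hopx-null and 23520.5 to 30692 units in wild-type hearts, and Ptprc, the pan-leukocyte marker, was below the floor on all arrays. Without wild-type array 1, 9 of the 12 members were above 0 and the median was 0.12.

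Of 27 endothelial and endocardial markers, 19 had a negative interaction, with a median of −0.09, and 3 were below 0 at an unadjusted p under 0.05 (11.1%, against 2.18% of all genes). Beside Emcn these were Vwf, von Willebrand factor, with −0.31 (SE 0.10), and Icam2, an adhesion molecule of endothelium, with −0.42 (SE 0.17). Vwf read 1279, 1231 and 1156 on the double-null arrays, 1434, 1557 and 1540.0 on the Hdac2-null arrays, 1490.0, 1428 and 1359 on the Hopx-null arrays and 1435, 1431 and 1403 on the wild-type arrays. The double-null arrays were the 3 lowest, and the other groups lay side by side. In whole ventricles, fewer cells of a type and less RNA per cell cannot be told apart. The summed signal of the list was 59439 to 62227 units in double-null, 61357 to 64447 in Hdac2-null, 61087 to 64073 in Hopx-null and 59855 to 67519 in wild-type hearts, so all ranges overlapped. When single arrays were left out the list median ran between −0.15, without wild-type array 2, and −0.03, without wild-type array 3, and it was −0.04 without double-null array 3.

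Sarcomere and respiratory chain lists had medians near that of all genes, and those of skeletal muscle isoforms and fatty acid oxidation lay further below 0. Of 29 sarcomere genes, 17 were below 0, the median was −0.02, and 28 had an interval within 1 log2 unit of 0. Tpm1, a tropomyosin of the thin filament, had −0.21 (SE 0.06) and Myl4, the atrial and fetal light chain, 0.22 (SE 0.10), the only 2 at an unadjusted p under 0.05 (6.90%, against 4.12% of all genes). Their number was 6 without Hopx-null array 3. It was 1 without any 1 of double-null array 3, Hdac2-null arrays 1 and 3, Hopx-null array 2 and wild-type array 3. The count over all genes moved too, to 770 of 9651 without Hopx-null array 3 and 213 of 9653 without double-null array 3. Of 5 skeletal muscle isoforms, Tnni2 among them, 4 were below 0 with a median of −0.16 and none at an unadjusted p under 0.05. The value of −0.16 was that of Ckm, the muscle creatine kinase, which was above the floor on all 12 arrays. That median was −0.33 to −0.07 when single arrays were left out, and 0.07 with array weights. Of 34 genes of oxidative phosphorylation 24 were below 0 with a median of −0.03, and 33 had an interval within 0.5 log2 units of 0. Fatty acid oxidation leaned further, with 18 of 26 below 0, a median of −0.08 and 4 below and 1 above 0 at an unadjusted p under 0.05 (19.2%, against 4.12% of all genes). The median was −0.12 without double-null array 1 and −0.05 without double-null array 3. Hadha, of the mitochondrial trifunctional enzyme, had −0.45 (SE 0.15), Etfb, which passes electrons from the acyl-CoA dehydrogenases on, −0.53 (SE 0.19), and Fabp3, the heart fatty acid carrier, −0.12 (SE 0.04). Hadha read 2601, 2581 and 2072 on the double-null arrays, 2994, 3139 and 2926 on the Hdac2-null arrays, 2672, 3051 and 2765 on the Hopx-null arrays and 2266, 2837 and 2715 on the wild-type arrays. The double-null arrays were below both single nulls and overlapped the wild type. The count of 5 members at that p was 3 without Hdac2-null array 1 and 3 without Hdac2-null array 3. Over all genes it was 436 of 9659 and 377 of 9651 in the same order.

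Transcription, chromatin and proliferation lists had medians within 0.1 of 0. Of 14 GATA4 target genes 9 were below 0 with a median of −0.03, and of 21 cardiac transcription factors 13 with a median of −0.04, none at an unadjusted p under 0.05 in either list. The median of the transcription factors was 0.02 without double-null array 3. Among 26 genes of deacetylase and other chromatin complexes the median was −0.04, and the 2 members at an unadjusted p under 0.05 were Sin3b, the scaffold of a Sin3 complex, with −0.26 (SE 0.10), and Kdm1a, the demethylase of the CoREST complex, with −0.29 (SE 0.13). Sin3b gave 4471, 4638 and 4377 on the double-null arrays, 4891, 5569 and 5077 on the Hdac2-null arrays, 5662, 4859 and 4801 on the Hopx-null arrays and 4925, 5044 and 4764 on the wild-type arrays, so that only the double-null arrays stood apart, below all others. The number of chromatin genes at that p was 2 of 26 or 7.69%, against 4.12% of all genes. It was 0 without double-null array 3, 0 without Hdac2-null array 2 and 4 without Hopx-null array 3. In the same order, the counts over all genes were 213 of 9653, 283 of 9647 and 770 of 9651. The median of the chromatin genes ran between −0.10 without Hopx-null array 3 and 0.02 without Hopx-null array 1. G1/S and replication genes had 20 of 31 above 0 and a median of 0.07, led by Ccne2, a cyclin of S phase entry, with 0.43 (SE 0.18). Their count at an unadjusted p under 0.05 was 1 (3.23%, against 4.12% of all genes). It was 7 without Hopx-null array 1, where the count over all genes was 480 of 9642. The G1/S median was −0.01 without Hopx-null array 3. Of 33 G2/M genes 18 were above 0, with a median of 0.02 that was −0.09 without Hopx-null array 3.

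**Figure D4:**
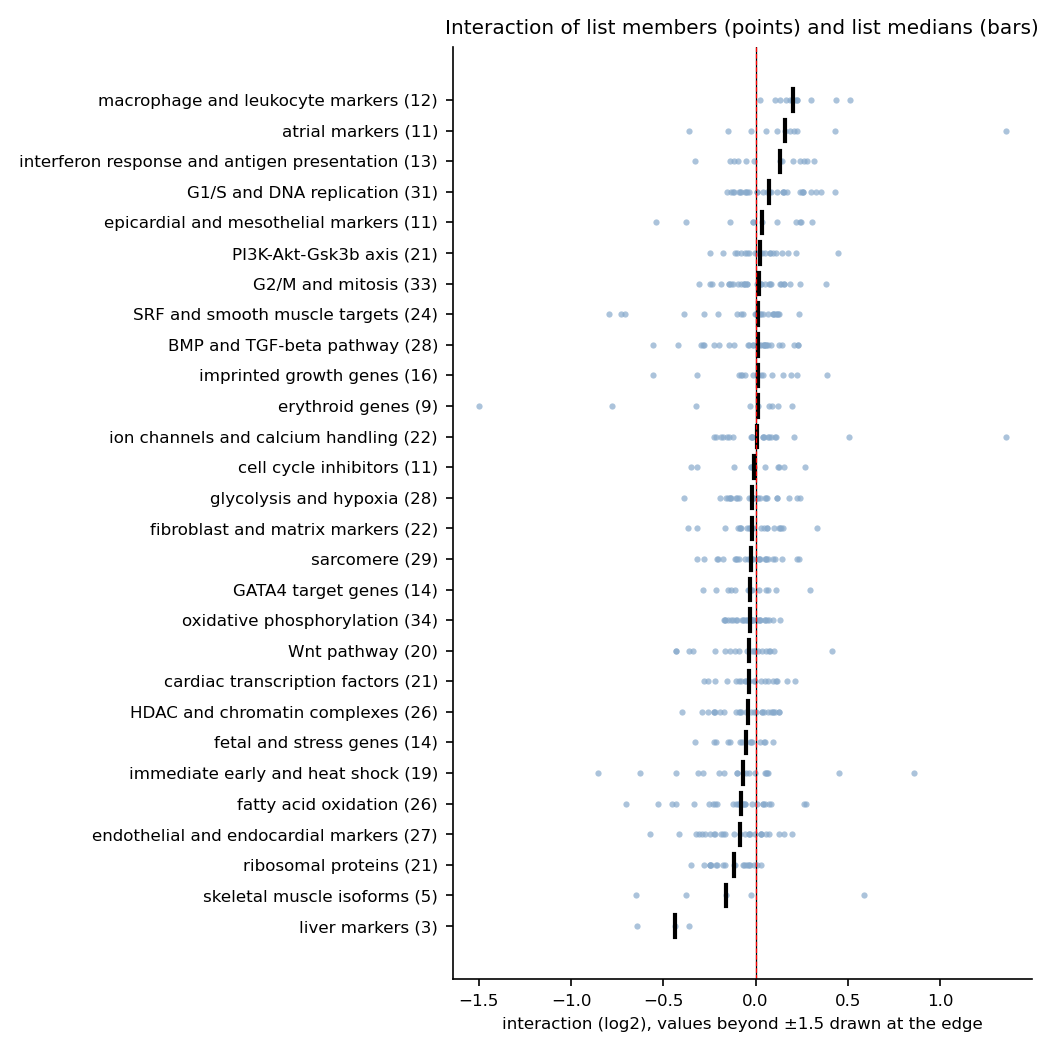
Interaction of the tested members (points, log2) of each gene list with at least 3 of them. The list median is the black bar, and the number of tested members stands in brackets. The sex-linked list is not drawn, and values past the axis limit, Hbb-y among them, are drawn at its edge. The red dashed line is the median of all genes, 0.005. The ribosomal proteins lie almost wholly left of 0 and the macrophage and leukocyte markers wholly right of it, while most lists lie on both sides.

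**Figure D5:**
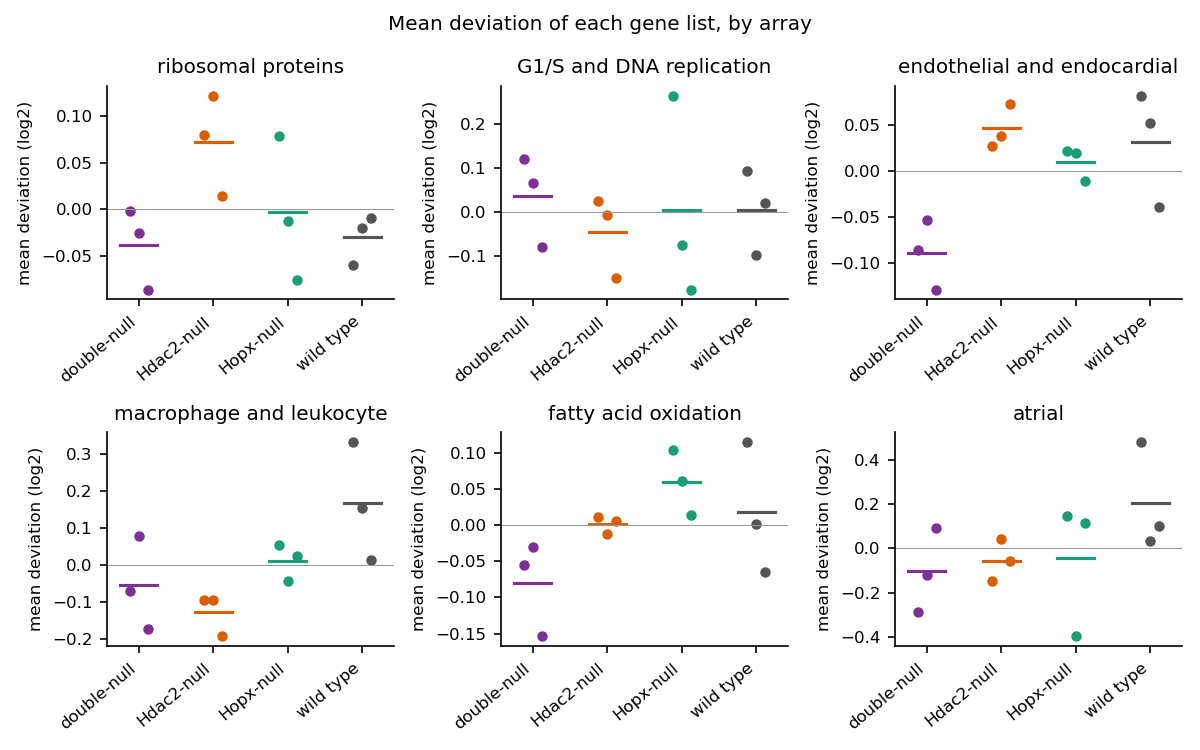
Mean deviation of 6 gene lists on each array (points, log2 units from each member's mean over the 12 arrays, in the order of replicates 1 to 3), with group means (bars). The double-null group has the lowest mean for the ribosomal, endothelial, fatty acid and atrial lists, and its points lie below all others for the endothelial list alone.

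Not all of the remaining lists are printed. At an unadjusted p under 0.05, ion channels and calcium handling had 2 of 22 members (9.09%), against 4.12% of all genes. SRF and smooth muscle targets had 2 of 24 (8.33%). Immediate early and heat shock genes had 13 of 19 below 0 with a median of −0.07, and fetal and stress genes 10 of 14 with a median of −0.05. Of 11 atrial markers 8 were above 0 with a median of 0.16, of 13 interferon and antigen presentation genes 7 with a median of 0.13, and neither median held its size when arrays were left out (0.03 to 0.22 for atrial markers, −0.16 to 0.22 for interferon genes). Of 28 genes of BMP and TGF-beta signalling 13 were below 0 with a median of 0.01, and Id3, picked after its values were seen, an inhibitor of helix-loop-helix factors and a target of that pathway, had −0.55 (SE 0.21). Of 20 Wnt pathway genes 13 were below 0, with a median of −0.03 and none at an unadjusted p under 0.05. All 3 liver markers were below 0, but Alb and Afp, albumin and alpha-fetoprotein, exceeded the floor on 1 array alone, Hdac2-null array 3, with 176 and 205 units. Heart muscle markers were high on all 12 arrays, and Sftpc of lung, Cd3e of thymus, Myod1 of skeletal muscle, Sox10 of neural crest and Adipoq of fat were below the floor on all of them. Other members of those lists had signal, and 2 lung, 1 thymus, 5 skeletal muscle, 2 neural and 2 fat genes were tested. The summed signal of the skeletal muscle list was 7959 to 9704 units in double-null, 9624.5 to 11295 in Hdac2-null, 9258 to 10456 in Hopx-null and 9127 to 10590.1 in wild-type hearts. Most of it came from Ckm, at 6047 to 8418 units over the arrays. That of the fat list was 19721.5 to 20963 in double-null, 18408 to 20420.2 in Hdac2-null, 19817 to 21945 in Hopx-null and 18891 to 20530.4 in wild-type hearts, almost all of it from Fabp4, a fatty acid carrier that endothelium also makes, which was picked after its values were seen. The lung list summed to at most 1657 units, on double-null array 3, and at least 1215, on Hopx-null array 3.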

How the data were processed

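Ventricular RNA of 12 mouse embryos was measured on single-colour Affymetrix arrays, 3 per genotype, grouped by the sample titles. The deposited table holds 1 linear intensity for each of 45101 probe sets. MAS5 stands in the submitters' processing notes, without a version. The deposited intensities share a narrow low plateau (48.6% of values within 1 unit of 4.5) and near-equal upper quartiles (559.4 to 587.4), a shape that leaves the summary method uncertain, and they were not normalised further.

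The floor of 82.9 was the 2% trimmed mean of each array, averaged over arrays and multiplied by 0.1. Genes had to reach the 40th percentile of mean signal (4.76 units) and to vary after the floor, which left 9661 of 18193 genes. In the platform annotation 34945 probe sets had a single gene and were used, 932 had several and 9160 none, and 64 were controls. Gene identifiers gave a current RefSeq symbol for 34741 probe sets. Members and lists were chosen with earlier results of these data known. Of 33 lists, 29 had at least 3 tested members.

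Models with 1 coefficient per genotype were fitted with limma 3.58.1 (lmFit, eBayes with an intensity trend) in R 4.3.3 and tested on simulated data. p-values are limma's, adjusted by the Benjamini-Hochberg method over all genes tested. Named genes were drawn from Hdac2 and Hopx, 12 heart, cell cycle and deacetylase genes, the 15 smallest p and the 5 largest interactions among genes above the floor on all arrays in each direction, and up to 3 members of each list with the smallest p in the direction of its median, of which a part is printed. Of the 15 smallest p above 0, 1 gene is not reported here. Genes outside this rule whose interactions are printed are marked in the text. Gapdh and beta-actin 3′ to 5′ ratios were compared by an exact permutation test. The number of arrays limits the precision. Xist and Y-linked signal differed between arrays within genotypes (5 arrays with Xist, 2 of them wild type), so the sexes were not balanced. The arrays with Xist were array 1 of each genotype and wild-type array 2. Sex and array number thus largely coincide and cannot be told apart for the arrays numbered 1. Deviations of same-numbered arrays had r over 0.1 across genes in 12 of 18 pairs (range −0.25 to 0.42), and not in every pair, so the numbers were not taken as pairs. Between the arrays numbered 1, r ran from 0.12 to 0.42. Alternatives covered the floor, the filter, normalisation, the variance model, Xist as a covariate, every probe set, the linear scale and leaving out arrays.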

Additional observations from a re-analysis of the deposited data

How the results depend on the processing

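Across 26 alternatives the interaction called 0 genes, except without wild-type array 3, where it called 1, Hopx (range 0 to 1 when single arrays were left out). The number of genes at an unadjusted p under 0.05, 398 in the main setting, was 679 of 15701 with every probe set tested on its own, where the larger number of features adds counts, and ran between 213 without double-null array 3 and 770 without Hopx-null array 3. The cause of the last 2 was not tested. The replicate block, which treats same-numbered arrays as paired, called 0 genes and put 551 under an unadjusted p of 0.05. Of 135 named genes, 119 kept their direction and their side of the threshold under every alternative. None was called in the main setting, and many were chosen for small p or large size in these same arrays. The count of 119 therefore does not measure robustness. Among the other named genes, some with an interaction near 0 changed sign. Acta1 did so under 11 of 26 alternatives, Gata4 under 9, Nkx2-5 under 4 and Hdac2 under 6 of 25. Bst2, an interferon-induced membrane protein, had 0.32 and turned to −0.44 with no floor. Bnc1, a transcription factor of mesothelium, was at −0.00115 without wild-type array 1, alone or together with Hopx-null array 1, and at most 0.365 without single arrays. On the linear scale 271 of 9661 genes changed sign, and 0 of the 398 with an unadjusted p under 0.05 did. With no filter on low values the genes tested were the same. Median interactions of the ribosomal, macrophage, endothelial and fatty acid lists kept their sign under every alternative, and those of the G1/S list did not. The floor limits genes below 82.9 units, and 3 arrays per genotype limit all others.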

Other observations

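Gene families were grouped by their symbols after the values were seen, members of the gene lists included, and are given as values with no test. Of 76 mitochondrial ribosomal proteins, which build the ribosome for mitochondrial translation, 68 had a negative interaction, with a median of −0.17, and 7 (9.21%) were below 0 and none above at an unadjusted p under 0.05, against 2.18% and 1.94% of all genes. Their mean deviation was −0.02, −0.06 and −0.20 log2 units on the double-null arrays, −0.03, −0.01 and 0.06 on the Hdac2-null arrays, 0.15, 0.14 and −0.04 on the Hopx-null arrays and 0.06, 0.04 and −0.08 on the wild-type arrays. The double-null values were low and the Hopx-null values mostly high, with overlap between both and with the other groups. Mrpl33 had −0.25 (SE 0.08) and Mrps18a −0.56 (SE 0.20), both picked after their values were seen. Of 36 proteasome subunits, 29 were below 0 with a median of −0.08, and of 42 complex I genes of the respiratory chain 35 were below 0 with a median of −0.07. Of all 42 cytosolic ribosomal protein genes tested, 35 were below 0 with a median of −0.11. At an unadjusted p under 0.05 there was 1 proteasome gene, below 0 (2.78%). Complex I had 2 below and 1 above 0 at that p (7.14%). The cytosolic ribosomal genes had 13 below 0 and none above (31.0%), against 4.12% of all genes in either direction.

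Zinc finger genes with the symbol Zfp, many of them transcription factors, leaned the other way. Of 209 tested, 138 had a positive interaction, with a median of 0.08, and 17 (8.13%) were above 0 and none below at an unadjusted p under 0.05, against 1.94% and 2.18% of all genes. Their mean deviation was 0.05, 0.07 and 0.09 log2 units on the double-null arrays, −0.04, 0.02 and −0.07 on the Hdac2-null arrays, 0.03, −0.06 and −0.06 on the Hopx-null arrays and −0.04, −0.07 and 0.08 on the wild-type arrays. The double-null arrays were all above both single nulls, and wild-type array 3 lay among them. Of 154 solute carrier genes, 97 were above 0 with a median of 0.06. Only 2 of them (1.30%) were at an unadjusted p under 0.05, both above 0, against 4.12% of all genes. The median genomic span was 7691 bases for the mitochondrial ribosomal genes, 18952 for the zinc finger genes and 28950.0 for the solute carriers, against 25985 over all genes. The part of gene length and of RNA quality in these values was not tested.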
